A study of Mus musculus with 4 samples.

Results

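The genes described here encode NFAT transcription factors, the phosphatase calcineurin that switches them on, and 2 proteins that hold calcineurin back. They were taken by name. Nfatc1, Nfatc2, Nfatc3 and Nfat5 encode NFAT proteins, Ppp3ca, Ppp3cb and Ppp3r1 encode calcineurin subunits, and Rcan1 and Cabin1 encode inhibitors. All 9 genes had probe sets that the platform annotation gives to 1 symbol, 34 probe sets in all, among 18194 genes and 45101 probe sets on the arrays. Each gene was represented by its brightest probe set, the one with the highest mean log2 value over the 4 arrays, and the other probe sets were used as a check.

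Transcripts were measured in group 2 innate lymphoid cells (ILC2), lymphocytes that release type 2 cytokines although they carry no antigen receptor. The Ets1-deleted group held 2 samples from C57BL/6 mice in which the gene of the transcription factor ETS1 was deleted, and the control group 2 samples from their littermates, also C57BL/6. Cells of both groups had been kept for 2 weeks on OP9-DL1, stromal cells bearing a Notch ligand, in medium with the cytokines IL-7 and IL-33, and cells positive for the receptor ICOS were sorted for RNA. Each sample had 1 Affymetrix array. The sources used here do not name the allele or Cre line behind the deletion or the age of the mice. No label says whether the samples of a group were separate animals or separate cultures, and a p-value below covers just the variation among these arrays, part of which may be technical. With n = 2 in each group the number of arrays sets the precision.

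In a lymphocyte, receptor signals open calcium stores and then calcium channels of the cell surface. The raised calcium switches on calcineurin, which is made of a catalytic A subunit (Ppp3ca, Ppp3cb or Ppp3cc) and a regulatory B subunit (Ppp3r1). Calcineurin removes phosphates from NFAT proteins, which then enter the nucleus and bind DNA at a GGAA core, often beside AP-1. Kinases such as GSK3, casein kinase 1 and DYRK put the phosphates back. In T cells this route drives the cytokine genes Il2 and Il4, among others, and in ILC2 it is known to take part in the release of type 2 cytokines. NFAT5 stands apart: it lacks the calcineurin-binding region and answers to osmotic stress.

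Rcan1, an inhibitor of calcineurin, is itself a well-known NFAT target, through a second promoter inside the gene. Its promoter windows are shown for that reason, together with the window of Nfatc3 that holds a match to an ETS motif. The sequences are from RefSeq and run 5′ to 3′ on the gene's strand, around an annotated transcript start and mostly ahead of it. Capitals mark 2 motifs on either strand: GGAAA, the usual NFAT core, and CGGAAG, a common form of the ETS site. The 2 share the letters GGAA but their matches did not overlap in these windows.
Rcan1 outer promoter, GRCm38.p6 chr16:92466120-92466419, minus strand: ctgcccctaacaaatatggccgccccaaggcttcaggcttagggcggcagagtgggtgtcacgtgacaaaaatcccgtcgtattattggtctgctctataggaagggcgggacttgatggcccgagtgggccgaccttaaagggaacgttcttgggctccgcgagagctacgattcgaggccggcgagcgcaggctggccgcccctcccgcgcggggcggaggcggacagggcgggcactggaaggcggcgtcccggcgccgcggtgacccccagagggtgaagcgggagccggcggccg
Rcan1 inner promoter, GRCm38.p6 chr16:92400029-92400328, minus strand: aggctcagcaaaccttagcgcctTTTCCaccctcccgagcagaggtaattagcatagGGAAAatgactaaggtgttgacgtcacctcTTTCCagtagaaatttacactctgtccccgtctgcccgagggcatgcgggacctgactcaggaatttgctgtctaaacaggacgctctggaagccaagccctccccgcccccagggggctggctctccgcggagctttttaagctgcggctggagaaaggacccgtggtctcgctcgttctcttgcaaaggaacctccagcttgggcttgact
Nfatc3 second window, GRCm38.p6 chr8:106059340-106059639, plus strand: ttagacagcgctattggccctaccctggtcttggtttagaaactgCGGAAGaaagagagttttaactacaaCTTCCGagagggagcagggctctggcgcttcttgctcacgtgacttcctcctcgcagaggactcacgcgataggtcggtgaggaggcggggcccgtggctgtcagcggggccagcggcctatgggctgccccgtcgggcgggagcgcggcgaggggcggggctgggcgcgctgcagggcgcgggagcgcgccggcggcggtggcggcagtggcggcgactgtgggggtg
The inner Rcan1 window held 3 matches to GGAAA and 0 to CGGAAG, and the outer one held 0 of either. The Nfatc3 window shown held 2 matches to CGGAAG and 0 to GGAAA, and the other Nfatc3 window held 1 match to GGAAA. The Ppp3r1 window held 0 of either. Genes that were not called held matches too: the Ppp3cb window 4 to GGAAA, those of Nfatc2 3 and 1, and that of Nfat5 2 to GGAAA and 1 to CGGAAG, while that of Cabin1 held 0. Among 32851 promoter windows of 300 bases, 61.3% held GGAAA and 16.9% held CGGAAG, so neither match is rare. Windows were found for 7 of the 9 genes. A match describes letters only, and the arrays did not measure binding or which promoter was in use.

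Ets1 itself was low in the Ets1-deleted arrays. Its brightest probe set read 138.1 and 180.2 intensity units in the Ets1-deleted arrays and 1272 and 1231 in the controls, -2.99 ± 0.13 on the log2 scale (limma, adjusted p = 2.17e-08). The sources used here do not say whether this probe set lies in the deleted part of the gene. A gene was tested where its mean reached the median of all probe sets, 97.44 intensity units, which left 10873 genes. Differences are Ets1-deleted minus control on the log2 scale, ± SE from limma, and a gene was called at an adjusted p below 0.05 over all 10873. The ILC2 markers with a probe set were over that limit for 10 of 10 genes (6 called higher, 2 lower). Thy1 (1.91), Rora (1.29, or 0.87 with the mean over its probe sets), Il17rb (0.93), Il5, Il13 and Il2ra were higher. Il5, Il13 and Il2ra also count among the cytokine and effector targets below. Klrg1 (-1.60) and Icos (-0.38), whose receptor was used for sorting, were lower, and Gata3 and Il7r were not called. Il1rl1 and Areg were not analysed here. Of other cell types, T cell markers were called higher for 4 of 7 tested genes and lower for 1, and the levels of the 11 measured genes summed to 6493 and 6813 in the Ets1-deleted arrays and 3663 and 3814 in the controls. The T cell receptor chain genes Cd3e (3.28), Cd247 (3.11) and Cd3d (2.58) had the largest differences among them. Zap70 (-1.13) was the lower one, while Cd4, Cd8a, Cd8b1 and Cd5 stayed under the limit. Cd3e averaged under the limit in the controls and was tested only through its Ets1-deleted values. The Cd3e difference was larger with the array floor subtracted, so its size is not fixed by these arrays. Mast cell and basophil markers were called higher for 7 of 9, with sums of 4317 and 4153 in the Ets1-deleted arrays and 2547 and 2564 in the controls. Among them the protease genes Cpa3 (4.07) and Mcpt2 (1.39) were higher, and Fcer1a, Ms4a2 and Mcpt4 were under the limit. The 2 tested but not called were the protease genes Mcpt8 (-0.25) and Tpsb2 (0.06). Mcpt8 read 1097 and 1193 in the Ets1-deleted arrays and 1337 and 1385 in the controls. Cpa3 read 1497 and 1261 in the Ets1-deleted arrays and 85.9 and 78.3 in the controls, Ms4a2 92.7 and 104 against 72 and 63.7, and Mcpt4 112 and 115 against 73.9 and 80.2. Of the 7 called, Cpa3 and Hdc averaged under the limit in the controls and were tested only through their Ets1-deleted values. The Cpa3 difference was 5.68 with the array floor subtracted, so its size is not fixed either. Cpa3 alone made up most of the rise in the sums. Myeloid markers were called higher for 8 of 8, with sums of 4261 and 4232 in the Ets1-deleted arrays and 2283 and 2501 in the controls, and Itgam and Cd14 under the limit. Stromal markers were called higher for 1 and lower for 3 of 10. Among the 7 osteoclast markers, a cell type in which Nfatc1 is the master regulator, 2 were tested and 1, Atp6v0d2, was called higher. NK and ILC1 markers were called higher for 1 and lower for 2 of 4, and B cell markers higher for 0 and lower for 1 of 2 (Cd79b). Cd79b and the stromal marker Vcam1 averaged under the limit in the Ets1-deleted arrays and were tested only through their control values. The Cd79b difference was -2.12 as deposited and -3.38 with the array floor subtracted. The part of these cells in the results below was not tested. In bulk samples, fewer cells of a type and less RNA per cell cannot be told apart.

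Of the 9 NFAT and calcineurin genes, all were bright enough on average to be tested. Nfatc3, Ppp3r1 and Rcan1 were lower in the Ets1-deleted arrays and 0 were higher, while the other 6 did not pass the test. Over all tested genes 26.7% were called, 12.8% lower and 13.9% higher. With both directions pooled, 3 of 9 is close to the share of genes called on these arrays. All 3 were lower, which is above the 12.8%, but 9 genes are few and this was not tested. The changes were small. The median difference of the 9 was -0.26, against -0.0037 over all tested genes, and the median size without sign was 0.29, against 0.19. In 8 of the 9 genes the arrays of the groups did not overlap, 6 with lower and 2 with higher values in the Ets1-deleted arrays. That held for 62.6% of all tested genes, 31.7% with lower and 30.9% with higher values. An exact permutation test of 2 arrays against 2 cannot give a p below 0.333, and with each gene's own variance alone 0 of the 9 reached even an unadjusted p of 0.05. The calls therefore rest on the variance that limma shares across genes. Leaving out 1 array moved the number of genes called lower to 1 without control 1, Ets1-deleted 1 or Ets1-deleted 2, and left it at 3 without control 2.

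**Figure D1:**
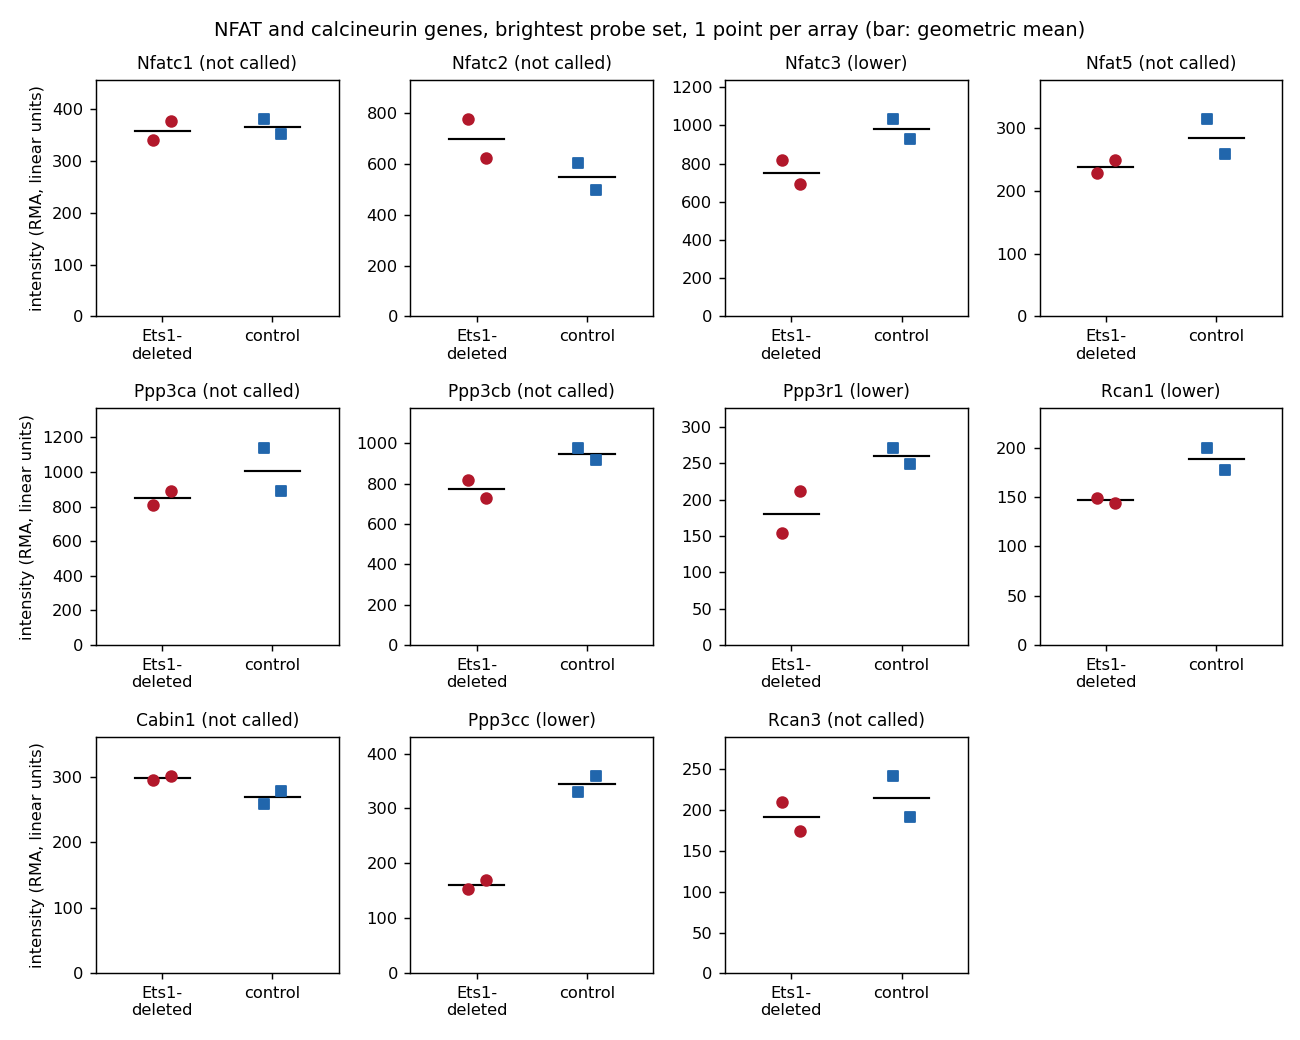
Intensity (RMA values on a linear scale, each axis from 0) of the brightest probe set of each NFAT and calcineurin gene and of Ppp3cc and Rcan3, with Ets1-deleted arrays as red circles, control arrays as blue squares and a bar at the geometric mean of each group (n = 2). Nfatc3, Ppp3r1, Rcan1 and Ppp3cc are marked lower; the Ppp3cc values of 154 and 170 in Ets1-deleted arrays lie far below the 330 and 359 of the controls, and Nfatc1 and Rcan3 are the panels whose groups overlap.

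Among the NFAT proteins that answer to calcium, Nfatc3, whose protein is abundant in developing T cells of the thymus, was the one that fell. Its brightest probe set read 822 and 691 intensity units in the Ets1-deleted arrays and 1033 and 929 in the controls. Both Ets1-deleted arrays lay below both controls. The difference was -0.38 ± 0.12 (limma, adjusted p = 0.04). Within the groups the 2 arrays lay 0.25 log2 units apart in the Ets1-deleted cells and 0.15 in the controls. The second Nfatc3 probe set read 396 and 460 in the Ets1-deleted arrays and 696 and 619 in the controls, a difference of -0.62 ± 0.12 (limma with 1 row per probe set, adjusted p = 0.00283). Both probe sets therefore moved the same way, and the dimmer one more. The brightest one has the ending _s_at, which the array maker gives to probe sets that can match more than 1 transcript. Its call did not hold without control 1 (-0.30, adjusted p = 0.219 in limma) or without Ets1-deleted 2 (-0.25, adjusted p = 0.209), nor with the array floor subtracted (-0.41, adjusted p = 0.0975).

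Nfatc2, the NFAT protein present in resting lymphocytes before any signal, leaned the other way without passing the test. It read 775 and 624 in the Ets1-deleted arrays and 605 and 499 in the controls, 0.34 ± 0.14 (limma, adjusted p = 0.0915). The groups just failed to overlap, with the lower Ets1-deleted array at 624 and the higher control at 605. The next 2 probe sets by brightness were tighter, with 666 and 671 in the Ets1-deleted arrays against 560 and 572 in the controls, and 605 and 595 against 519 and 542. Their differences of 0.24 ± 0.11 and 0.18 ± 0.11 did not pass either (adjusted p of 0.137 and 0.278 in limma). The remaining 2 over the limit gave -0.02 and -0.10. With the replicate number as a block, the brightest probe set passed (adjusted p = 0.0297 in limma), and so it did without control 1 (0.48) or without Ets1-deleted 2 (0.50). The difference was 0.18 without Ets1-deleted 1, 0.20 without control 2 and 0.10 with the mean over all Nfatc2 probe sets (adjusted p of 0.426, 0.482 and 0.416 in limma).

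Nfatc1, which many cells induce through NFAT itself, gave the smallest difference of the 9. It read 340 and 376 in the Ets1-deleted arrays and 380 and 352 in the controls, so the groups overlapped. The difference was -0.03 ± 0.11, with a 95% interval from -0.28 to 0.22 (limma, adjusted p = 0.869). Its sign turned without control 1 (0.02) or Ets1-deleted 1 (0.039). Its 5 probe sets, all over the limit, spread from -0.36 to 0.19 and none was called. The one at -0.36 ± 0.13 read 101 and 100 in the Ets1-deleted arrays and 117 and 144 in the controls, near the limit (adjusted p = 0.0556 in limma).

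Nfat5, the osmotic member of the family, read 228 and 248 in the Ets1-deleted arrays and 313 and 258 in the controls. The difference of -0.26 ± 0.12 did not pass (limma, adjusted p = 0.155), and control 1 alone set most of it. Without that array it was -0.12. The 4 Nfat5 probe sets over the limit all had negative differences, from -0.41 to -0.26, and 1 was called: 199 and 187 in the Ets1-deleted arrays against 230 and 285 in the controls (-0.41 ± 0.13, adjusted p = 0.0355 in limma). With the mean over probe sets Nfat5 passed at -0.27 (adjusted p = 0.0299). Among 4 tested genes that NFAT5 induces under osmotic stress, 1 was called higher, the amino acid transporter gene Slc38a2 (0.52 ± 0.12, limma, adjusted p = 0.00777), and 0 lower, with a median of 0.14. Averaged over its probe sets Slc38a2 was at 0.19 and not called, and without control 2 it was at 0.43 and not called (adjusted p = 0.0532 in limma).

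The clearest change among calcineurin subunits was in a gene outside the named set. Ppp3cc, the third catalytic subunit gene, read 154 and 170 in the Ets1-deleted arrays and 330 and 359 in the controls. Both Ets1-deleted arrays were far below both controls, and the difference of -1.09 ± 0.11 is 2.13-fold lower in Ets1-deleted cells (limma, adjusted p = 2.07e-05). The second Ppp3cc probe set read 138 and 142 in the Ets1-deleted arrays and 215 and 262 in the controls (-0.76 ± 0.12, adjusted p = 0.000727). The call held in 16 of 17 alternatives, with values from -1.45 to -0.93, and was lost with each gene's own variance.

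Ppp3r1, the regulatory subunit that all calcineurin enzymes outside the testis share, had the largest difference of the 9 named genes and also a wide spread. It read 154 and 212 in the Ets1-deleted arrays and 272 and 249 in the controls. Both Ets1-deleted arrays were below both controls, but they differed from each other by 0.46 log2 units. The difference between groups was -0.52 ± 0.15 (limma, adjusted p = 0.0195). Without Ets1-deleted 1 it was -0.29 and the call was lost (adjusted p = 0.149 in limma). The only other Ppp3r1 probe set of 1 symbol stayed under the limit, with 96.3 and 88.4 in the Ets1-deleted arrays and 106 and 98.5 in the controls.

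Ppp3ca and Ppp3cb, the alpha and beta catalytic subunit genes, were lower on their brightest probe sets without passing. Ppp3cb read 818 and 730 in the Ets1-deleted arrays and 978 and 918 in the controls (-0.29 ± 0.11, limma, adjusted p = 0.079). The groups did not overlap, yet its probe sets were divided. A second one read 488 and 492 in the Ets1-deleted arrays and 664 and 599 in the controls and was called (-0.37 ± 0.11, adjusted p = 0.0343 in limma), while the other 2 over the limit each gave 0.13. The mean over all Ppp3cb probe sets was -0.09.

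Ppp3ca read 808 and 888 in the Ets1-deleted arrays and 1141 and 889 in the controls, so that Ets1-deleted 2 and control 2 were almost equal. The difference was -0.25 ± 0.13 (limma, adjusted p = 0.198), and without control 1 it was -0.07. Its other probe sets were steadier between arrays of a group. One read 667 and 680 in the Ets1-deleted arrays and 821 and 868 in the controls (-0.33 ± 0.11, adjusted p = 0.0504 in limma). The other read 505 and 517 in the Ets1-deleted arrays and 655 and 666 in the controls (-0.37 ± 0.11, adjusted p = 0.0278). With the mean over its probe sets Ppp3ca passed at -0.32 (adjusted p = 0.0189). The brightest probe set had the widest spread of the 3.

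**Figure D2:**
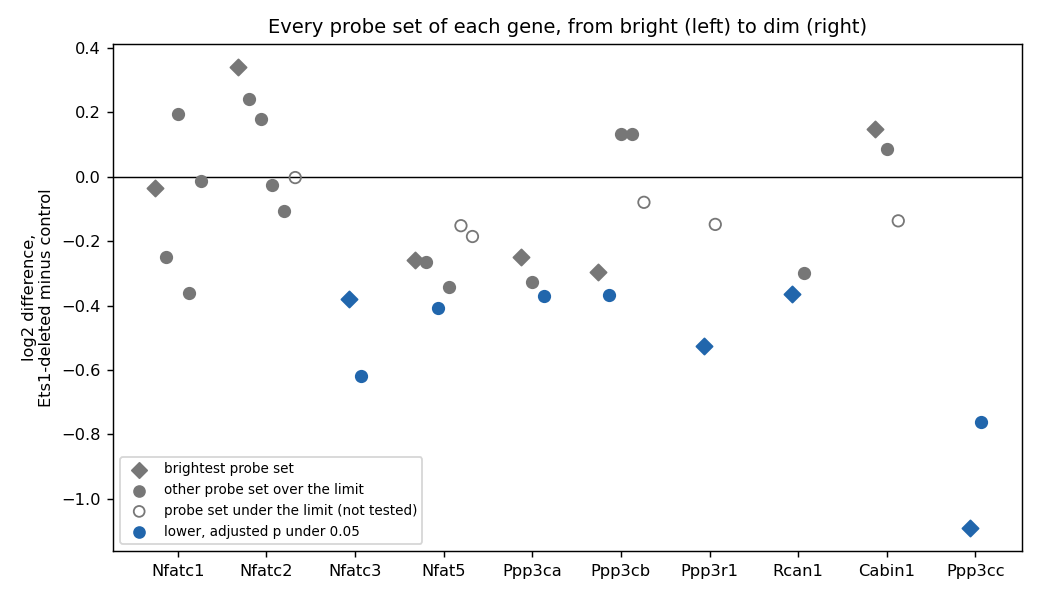
Log2 difference (Ets1-deleted minus control) of each of the 34 probe sets of the 9 genes and of both Ppp3cc probe sets, with diamonds for the brightest probe set of a gene, open circles for probe sets under 97.44 intensity units, which were not tested, and blue for those called lower. Nfatc3, Nfat5, Ppp3ca, Ppp3r1, Rcan1 and Ppp3cc lie below 0 with each of their probe sets, and Nfatc1, Nfatc2, Ppp3cb and Cabin1 are on both sides.

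Of the 28 probe sets over the limit, 20 had a negative difference and 8 a positive one. In the fit with 1 row per probe set 7 were called lower and 0 higher. In that fit 24.2% of all 19845 probe sets were called, 11.3% lower. The 7 belonged to Nfatc3, with 2, and to Nfat5, Ppp3ca, Ppp3cb, Ppp3r1 and Rcan1, with 1 each. Probe sets of 1 gene may read the same or different transcripts, but they read the same RNA samples and are not independent.

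Of the inhibitors, Rcan1 fell. It read 150 and 144 in the Ets1-deleted arrays and 200 and 178 in the controls, with no overlap, a difference of -0.36 ± 0.11 (limma, adjusted p = 0.034). The Ets1-deleted arrays were only 0.06 log2 units apart and the controls 0.17. The second Rcan1 probe set, close to the limit, read 105 and 97.1 in the Ets1-deleted arrays and 126 and 123 in the controls (-0.30 ± 0.11, adjusted p = 0.0736 in limma). Both belong to the gene whose inner promoter window, shown above, holds the GGAAA matches, and which of its promoters made the transcripts was not measured. The Rcan1 call did not hold without control 1 (-0.28, adjusted p = 0.275 in limma), without Ets1-deleted 1 (-0.39, adjusted p = 0.0551) or without Ets1-deleted 2 (-0.33, adjusted p = 0.0971).

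Cabin1, which binds calcineurin and also represses MEF2 factors, read 295 and 301 in the Ets1-deleted arrays and 259 and 279 in the controls. The Ets1-deleted arrays were slightly above both controls. The difference was 0.15 ± 0.11, with a 95% interval from -0.09 to 0.39 (limma, adjusted p = 0.363). A second probe set gave 0.09 with overlapping groups.

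The relatives of these genes were measured too. Rcan3 read 210 and 174 in the Ets1-deleted arrays and 241 and 192 in the controls, and the groups overlapped (-0.17 ± 0.14, limma, adjusted p = 0.422). Nfatc4, Ppp3r2 (the testis form of the B subunit) and Rcan2 stayed under the limit. Of the 5 relatives, 2 were thus tested, 1 was lower (Ppp3cc) and 0 were higher.

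Ahead of calcineurin, the genes of calcium entry gave 2 falls and 0 rises among 9 tested, with a median of -0.06. Over all tested genes 26.7% were called, 12.8% lower and 13.9% higher, so 2 of 9 is not above the share called. The counts of the other lists stand beside the same shares. Plcg1, the phospholipase that makes the messenger which opens calcium stores, read 375 and 308 in the Ets1-deleted arrays and 575 and 578 in the controls. The groups were well apart (-0.76 ± 0.12, limma, adjusted p = 0.000615), although the mean over its 3 probe sets was -0.34. Its relative Plcg2 read 497 and 418 in the Ets1-deleted arrays and 367 and 374 in the controls, 0.30 ± 0.12 (limma, adjusted p = 0.0867), and passed without Ets1-deleted 2 (0.42). Orai2, a subunit of the calcium channel of the cell surface, read 189 and 168 in the Ets1-deleted arrays and 237 and 260 in the controls and fell (-0.48 ± 0.12, adjusted p = 0.00955 in limma). The Orai2 call was lost without control 2 (-0.41). Orai1, the main pore subunit in lymphocytes, differed by 0.18 ± 0.14 and Orai3 by -0.21 ± 0.11. The store sensor genes Stim1 and Stim2 differed by -0.05 ± 0.13 and 0.23 ± 0.13, and the store channel genes Itpr2 and Itpr3 by -0.06 ± 0.16 and -0.10 ± 0.12, and none of these 6 passed. Itpr1 was not analysed here.

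**Figure D3:**
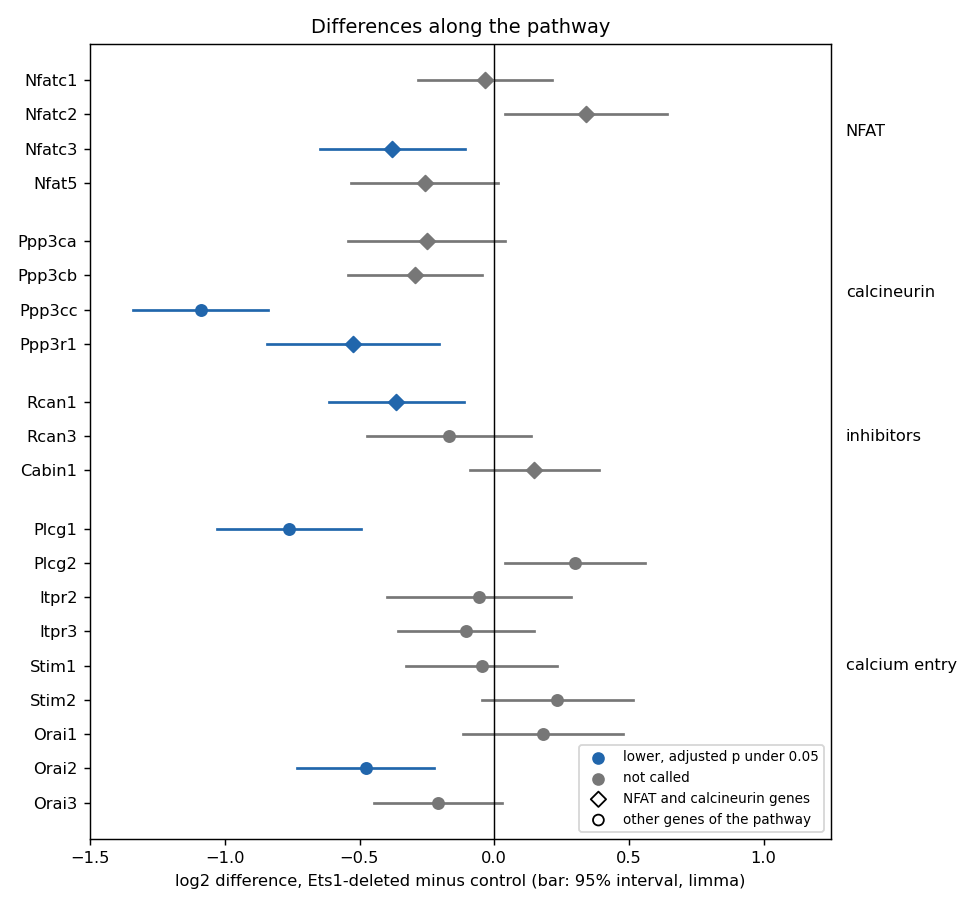
Log2 difference (Ets1-deleted minus control) with its 95% interval from limma for NFAT, calcineurin, inhibitor and calcium entry genes, with diamonds for the 9 NFAT and calcineurin genes, circles for other genes and blue for genes called lower. Ppp3cc at -1.09 and Plcg1 at -0.76 lie farthest from 0. Among the 9 genes the intervals of Nfatc1, Nfat5, Ppp3ca and Cabin1 cross 0. Among the other genes those of Rcan3, Itpr2, Itpr3, Stim1, Stim2, Orai1 and Orai3 do so.

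Among 4 tested genes for proteins that bind calcineurin or NFAT, 2 rose and 0 fell, with a median of 0.33. Homer2, whose protein competes with calcineurin for NFAT in T cells, read 374 and 301 in the Ets1-deleted arrays and 71.8 and 84.6 in the controls, where it lay under the limit. It was thus tested only through its Ets1-deleted values, and the size of its rise is not fixed by these arrays. The Ets1-deleted mean was 3.44 times the limit, and the log2 difference was 2.10 ± 0.13 as deposited (limma, adjusted p = 3.2e-07), 3.71 with the array floor subtracted and 1.37 with the mean over its 3 probe sets. Fkbp1a, the target of the drug FK506, read 3543 and 3007 in the Ets1-deleted arrays and 2384 and 2592 in the controls (0.39 ± 0.12, adjusted p = 0.0306 in limma). That call was lost without control 1 (0.33) or Ets1-deleted 1 (0.27), and with the array floor subtracted (0.40).

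Genes of NFAT kinases and of transport into and out of the nucleus gave 3 rises and 1 fall among 11 tested, with a median of 0.16. Dyrk3, a kinase of the family that primes NFAT for GSK3, read 147 and 159 in the Ets1-deleted arrays and 97.1 and 102 in the controls (0.62 ± 0.11, limma, adjusted p = 0.00139). Xpo1, the nuclear exporter, read 1436 and 1516 in the Ets1-deleted arrays and 1003 and 939 in the controls (0.60 ± 0.11, limma, adjusted p = 0.00155), and the mean over its 3 probe sets was 0.25. Casein kinase 1 genes were divided, with Csnk1e at 0.38 ± 0.11 (adjusted p = 0.0251) and Csnk1d at -0.33 ± 0.11 (adjusted p = 0.0385 in limma). Csnk1e was no longer called without control 1 (0.34), without control 2 (0.42) or without Ets1-deleted 2 (0.32), and Csnk1d without any 1 of the 4 arrays (-0.36 to -0.31) or with the array floor subtracted (-0.34).

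Nuclear partners of NFAT gave 3 rises and 2 falls among 13 tested, with a median of -0.13. The AP-1 gene Jun rose, with 328 and 334 in the Ets1-deleted arrays and 140 and 145 in the controls (1.22 ± 0.11, limma, adjusted p = 5.11e-06). Fosl2 rose by 0.58 ± 0.13 and Fosl1 by 0.35 ± 0.12 (adjusted p of 0.00489 and 0.0475 in limma). Irf4, which binds DNA together with NFAT in type 2 T cells, read 502 and 438 in the Ets1-deleted arrays and 821 and 754 in the controls (-0.75 ± 0.12, adjusted p = 0.000525 in limma). Mef2d, a factor that calcineurin activates and Cabin1 represses, fell by 0.42 on the log2 scale (adjusted p = 0.019 in limma), and with the mean over its probe sets it was -0.19 and not called. Fosl2 was no longer called without control 2 (0.42), and neither was Mef2d without control 2 (-0.31), without Ets1-deleted 2 (-0.39) or with the array floor subtracted (-0.46). Fosl1 was no longer called without control 1 (0.41), control 2 (0.30) or Ets1-deleted 1 (0.23), nor without the filter on dim genes or with 1 row per probe set (adjusted p of 0.0645 and 0.0528 in limma).

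Genes that NFAT is known to switch on in lymphocytes moved in both directions. Of 9 tested cytokine and effector targets, 7 rose and 2 fell, with a median of 0.69. Csf2, the gene of GM-CSF, read 2324 and 1986 in the Ets1-deleted arrays and 289 and 332 in the controls, and Il9 read 642 and 815 in the Ets1-deleted arrays and 168 and 156 in the controls. Their differences were 2.79 ± 0.12 and 2.16 ± 0.13 (adjusted p of 2.17e-08 and 2.01e-07 in limma). The type 2 cytokine genes Il5 and Il13 rose by 0.83 ± 0.16 and 0.69 ± 0.13, and Il2ra, the gene of the IL-2 receptor alpha chain, by 0.81 ± 0.13 (adjusted p of 0.00264, 0.00196 and 0.000619 in limma). Il4, the target in which NFAT was studied most in type 2 T cells, read 686 and 572 in the Ets1-deleted arrays and 953 and 1058 in the controls (-0.68 ± 0.12, limma, adjusted p = 0.00155). Il2 was the other fall (-0.42 ± 0.12, adjusted p = 0.0234 in limma), near the limit at 114 and 96.2 in the Ets1-deleted arrays and 135 and 145 in the controls. Without control 2 or Ets1-deleted 2, Il2 was not called (-0.37 and -0.29). Il4 and Il2 are named after their values were seen. Of the other targets of this list, Il3, Il21, Ifng, Cd40lg and Fasl stayed under the limit. In the 9 tested targets the mean of each group was over the limit.

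Of 15 feedback and inhibitory targets, 5 rose and 3 fell, with a median of 0.27. Pdcd1, the gene of PD-1, read 489 and 397 in the Ets1-deleted arrays and 63.3 and 64.7 in the controls, under the limit. It was tested only through its Ets1-deleted values, which averaged 4.52 times the limit, and the log2 difference was 2.78 ± 0.12 as deposited (limma, adjusted p = 2.17e-08) and 4.59 with the array floor subtracted. The early response gene Egr2 read 525 and 573 in the Ets1-deleted arrays and 224 and 224 in the controls, and Nr4a1 read 218 and 235 in the Ets1-deleted arrays and 132 and 136 in the controls. They rose by 1.29 ± 0.11 and 0.76 ± 0.11 (adjusted p of 3.75e-06 and 0.000292 in limma). On the other side, Rnf128, a ubiquitin ligase of T cell anergy, read 690 and 515 in the Ets1-deleted arrays and 2232 and 2310 in the controls (-1.93 ± 0.14, limma, adjusted p = 8.73e-07). Dgka, a kinase that ends a lipid signal beside calcium, read 371 and 342 in the Ets1-deleted arrays and 679 and 655 in the controls (-0.90 ± 0.11, limma, adjusted p = 7.16e-05).

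Over all 67 tested genes of the 8 lists, 21 rose and 11 fell, with a median of 0.15. Homer2 and Pdcd1 were the only called genes of these lists with a group mean under the limit. These 32 of 67 called stand against 26.7% of all tested genes, in lists drawn from textbook genes with earlier results of these arrays known.

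**Figure D4:**
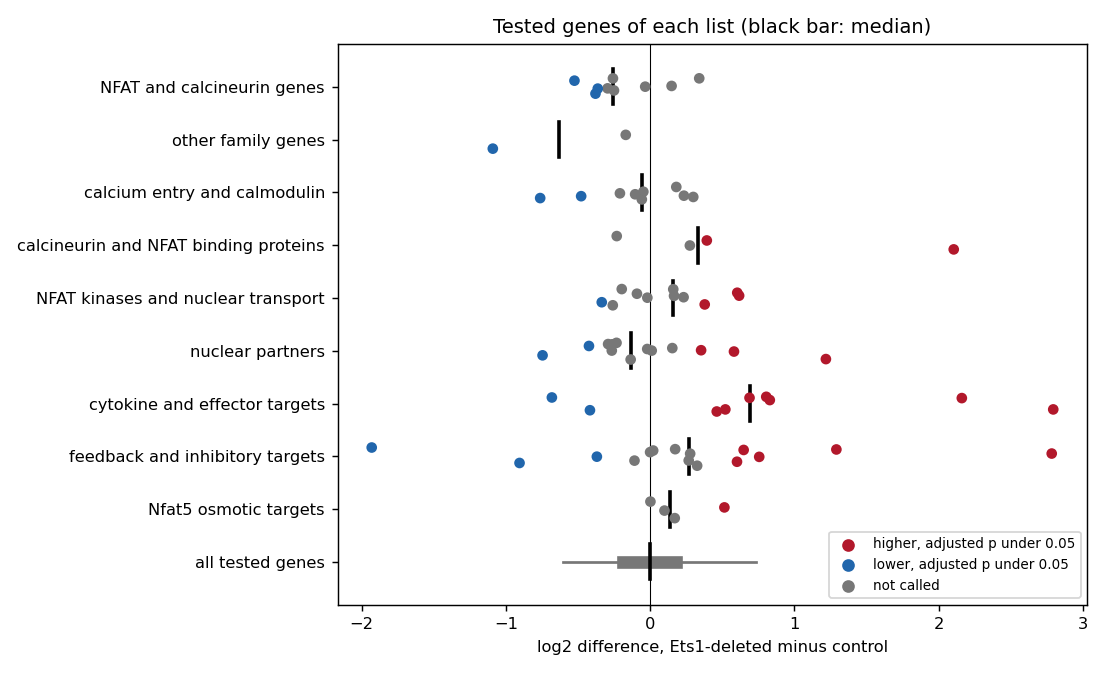
Log2 difference (Ets1-deleted minus control) of the tested genes of each list, red for genes called higher, blue for genes called lower and a black bar at the median, with the interquartile range of all 10873 tested genes as a thick bar and the 5th to 95th percentile as a thin line. The NFAT and calcineurin genes stay between -0.52 and 0.34, and the cytokine and feedback targets reach from -1.93 to 2.79.

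By their values over the 4 arrays, after each gene's own mean is taken off, the genes most like Ppp3r1 among 10872 others were Ipcef1, Fbxo27 and Raly. Their root mean square differences from it were 0.023, 0.025 and 0.035 log2 units. Ipcef1 read 111 and 152 in the Ets1-deleted arrays and 192 and 184 in the controls, so it shares the gap between the Ets1-deleted arrays with Ppp3r1. With 4 arrays such likeness is a description only.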

How the data were processed

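RNA of the sorted cells was amplified and put on Affymetrix arrays, 1 per sample, per the labels' protocols. The deposited values are intensity units that the authors made with RMA, per the submitters' processing notes; the sources used here name no software or version for it. They run from 39.5 to 23291 and were therefore read as linear, an inference, since RMA commonly gives log2. Array medians lie between 96.5 and 97.7, and nothing further was normalized. Such summaries level off near the floor, which understates folds of dim genes.

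Probe sets were named through the platform annotation: 34958 had 1 symbol, 932 several and 9211 were not listed. Log2 values were fitted with lmFit and eBayes of limma 3.58.1 in R 4.3.3 (2 residual and 9.75 prior degrees of freedom), and p-values were adjusted by Benjamini-Hochberg over every gene tested. Intervals are 95%. The code was tested on simulated data. The genes, lists and tests were chosen with earlier results of these data known. Named are the 9 genes, Ets1, all relatives and calcium entry genes, up to 5 called genes per other pathway list, up to 4 called markers per cell type and the 3 nearest genes; other genes named were chosen after their values were seen.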

Additional observations from a re-analysis of the deposited data

How the results depend on the processing

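Each result was recomputed under 17 alternatives: normalization, array floor, filter, probe set summary, replicate block, variance model, threshold and leaving out each array. Cabin1 kept its sign and its side of the threshold in all 17. The replicate numbers are shared by label only, and deviations of same-numbered arrays correlated at r = 0.167 over genes; with the replicate block Nfatc2 passed (0.34, adjusted p = 0.0297 in limma), which made 1 of the 9 genes higher, and no other call among the 9 changed.

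Without the filter on dim genes, more genes were tested and the calls of Nfatc3 (-0.38, adjusted p = 0.0626 in limma) and Ppp3r1 (-0.52, adjusted p = 0.0591) were lost, leaving 1 of the 9 lower. With the array floor subtracted, Nfatc3 was lost (-0.41, adjusted p = 0.0975 in limma). With the mean over probe sets, 5 were lower, with Nfat5 (-0.27) and Ppp3ca (-0.32) added. At a threshold of 0.1, Nfatc2 (0.34, 1 higher) and Ppp3cb (-0.29) passed. With each gene's own variance, 7 genes were called higher and 6 lower over the whole array, 0 of the 9 (Nfatc3 at -0.38, Ppp3r1 at -0.52 and Rcan1 at -0.36 were lost) and 0 of the pathway genes in either direction; 2607 genes had an unadjusted p under 0.05. Against a limit of 1.5-fold, 313 genes were higher and 171 lower, 0 of the 9 (the same 3 were lost), and 6 pathway genes higher and 2 lower. With 1 row per probe set, where more rows were tested, 2550 were higher and 2247 lower, against 1512 and 1388 genes. The stricter filter left Rcan1 untested. With the mean over probe sets 6 uncalled list genes turned sign: Stim1 (0.014), Itpr2 (0.13), Kpnb1 (-0.019), Itch (-0.075), Slc5a3 (-0.047) and Nr4a2, an early response gene, which then passed (0.45, against -0.11; adjusted p = 0.00506 in limma). The causes of these shifts were not tested where none is given.

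Leaving out 1 array (the lone array of a group is then assumed to vary like the other group) gave 1199 to 1465 genes higher and 1020 to 1271 lower, 0 to 1 of the 9 higher and 1 to 3 lower, and 16 to 23 pathway genes higher and 6 to 11 lower (6 without control 2, 7 without Ets1-deleted 2). Differences ranged from -0.11 to 0.039 for Nfatc1, 0.18 to 0.50 for Nfatc2, -0.50 to -0.25 for Nfatc3, -0.40 to -0.12 for Nfat5, -0.43 to -0.07 for Ppp3ca, -0.38 to -0.21 for Ppp3cb, -0.76 to -0.29 for Ppp3r1, -0.45 to -0.28 for Rcan1 and 0.10 to 0.20 for Cabin1. For the uncalled Stim1 they ranged from -0.20 to 0.11 and for Itpr2 from -0.33 to 0.22.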

Other observations

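Of 13 list genes under the limit, which went untested, 6 had groups that did not overlap: Il3, Akap5, Ifng, Hspa1b, Mef2c and Slc6a12. Groups did not overlap in 62.6% of all tested genes, so 6 of 13 is not a high share. The share among all genes under the limit was not computed. Il3, a cytokine gene that NFAT drives in T cells and mast cells, read 122 and 106 intensity units in the Ets1-deleted arrays and 63 and 57.7 in the controls. Akap5, whose protein anchors calcineurin near membranes, read 64.8 and 66.2 in the Ets1-deleted arrays and 84 and 84.5 in the controls. Ifng read 99.5 and 100.4 in the Ets1-deleted arrays and 80.6 and 92 in the controls, and Hspa1b, a heat shock gene that NFAT5 induces, 84.9 and 80 in the Ets1-deleted arrays and 68.6 and 70 in the controls. The other 2 differed by less. The genes were picked after their values were seen, and no p-value was computed for them.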
